A study of Mus musculus with 3 samples.

Results

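The colony-stimulating factors are secreted proteins that keep myeloid cells alive and drive their growth and maturation, and this account follows 8 genes of the system through single-cell RNA from mouse lung. The 8 were taken by symbol from the 32285 genes of the deposited matrices: the ligand genes Csf1, Il34, Csf2 and Csf3, and the receptor genes Csf1r, Csf2ra, Csf2rb and Csf3r. All 8 had at least 1 unique molecular identifier (UMI, a tag that marks 1 captured RNA molecule) in each library. Csf2rb2, a near copy of Csf2rb, was read beside them.

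Cells from the lungs of mice 3 months old were captured with the Chromium 3′ chemistry, which counts the ends of polyadenylated transcripts. There was 1 library for each of 3 groups, named Control, Model and PD00 in the labels. The series title speaks of immune cells induced by OVA and of a peptidomimetic called PD00. The labels do not say which groups received OVA, give no dose, strain or number of animals, and carry the same tissue entry, healthy lung, for all 3 libraries. With 1 library per group no difference has a replicate check and no test was made. Every interval below is a 95% interval for counting error only, and the comparisons share libraries, so they are not independent of each other.

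After filtering, 9368 Control, 11285 Model and 9373 PD00 cells remained, with 76914274 to 79690635 UMIs per library. Cells were clustered without the 8 genes and grouped into classes by marker genes. Clusters left unnamed held 44 Control, 1454 Model and 307 PD00 cells, which are 0.470%, 12.9% and 3.28% of the libraries. In Model they held 5.82% of the Csf1, 5.01% of the Csf1r, 6.61% of the Csf2ra and 5.49% of the Csf2rb UMIs. Alveolar macrophages made up 32.2% of the Control library, 1.47% of the Model library and 6.61% of the PD00 library. A macrophage class marked by Gpnmb and Trem2 had 0 of 9368 cells in Control, which allows a share of up to 0.0320%, and 1193 cells in Model and 1308 in PD00. Defining markers were found as follows: Siglecf in 77.2% of alveolar macrophages, Trem2 in 94.6% of the Gpnmb Trem2 macrophages, C1qa in 98.3% of interstitial macrophages, Cxcr2 in 70.7% of neutrophils, and Gata3 in 86.1% of group 2 innate lymphoid cells (ILC2) against Cd3e in 4.44%. Counts of ILC2 with a UMI of any CD3 gene are higher and are given below. Marco was found in only 5.86% of the alveolar macrophage class. Among eosinophils, Ccr3 was found in 43.3% and Epx in only 6.46%. Alveolar macrophages came from clusters 5, 9 and 31 in Control and almost wholly from cluster 43 in Model and PD00, and cluster 43 shared Chil3, Fbp1, Ear2 and Ms4a8a among its leading genes with cluster 44 of the Gpnmb Trem2 class. In sums over a library, fewer cells of a type and less RNA per cell cannot be told apart, so each sum is followed by values within classes.

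Macrophage colony-stimulating factor, encoded by Csf1, and interleukin 34 both bind the receptor tyrosine kinase CSF1R, on which most tissue macrophages depend. Granulocyte-macrophage colony-stimulating factor (GM-CSF, encoded by Csf2) binds the specific alpha chain CSF2RA paired with the common beta chain CSF2RB, which interleukins 3 and 5 also use, and in the lung it is required for the maturation and lipid handling of alveolar macrophages. Granulocyte colony-stimulating factor (encoded by Csf3) acts through CSF3R, the main receptor of the neutrophil lineage. In mouse, unlike human, the beta chain gene has a neighbouring copy, Csf2rb2, whose product serves the interleukin 3 receptor.

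The copies lie on chromosome 15 of GRCm38, Csf2rb at 78325752 to 78353847 on the plus strand and Csf2rb2 at 78282507 to 78305721 on the minus strand. The first 90 coding bases are printed because they show how alike the genes are. The stretches run over chr15:78335207-78336349 and chr15:78297101-78298229, each with an intron inside, and capitals mark the 3 bases that differ, which leaves 96.7% identity.
Csf2rb: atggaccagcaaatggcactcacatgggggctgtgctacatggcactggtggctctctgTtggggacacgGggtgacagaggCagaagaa
Csf2rb2: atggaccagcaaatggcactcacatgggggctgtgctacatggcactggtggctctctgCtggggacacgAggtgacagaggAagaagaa
Over the whole transcript, 394 of the 4811 windows of 90 bases in Csf2rb (8.19%) also occur in Csf2rb2. In the last 500 bases, where this chemistry reads, 0 of 411 such windows were shared, and 6 of 470 windows of 31 bases were. The counts of the genes are therefore read separately, with a small overlap possible for short reads.

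The transcription factor PU.1 (gene Spi1) is a known activator of myeloid receptor genes, and its core GAGGAA, which reads TTCCTC from the other strand, was searched on both strands in the 250 bases before the RefSeq start sites (GRCm38.p6) of Csf1, Csf2, Csf2ra, Csf2rb2 and Csf3r. The windows of Il34, Csf1r, Csf2rb and Csf3 were not searched here. The core occurred in the windows of Csf3r, Csf2ra and Csf2rb2, and in 23.3% of the 32851 windows of this length in the genome, so a match is common. The matched stretches, with the core in capitals, lie at chr4:126024561-126024590 on the plus strand (Csf3r, core from 86 bases before the RefSeq start), chr19:61228419-61228448 on the minus strand (Csf2ra, first core from 14 bases before) and chr15:78305871-78305900 on the minus strand (Csf2rb2, core from 167 bases before). The Csf3r stretch lies within the annotated gene, which spans 126024550 to 126044440, and the Csf2ra stretch reaches into the annotated gene, which ends at 61228429, because these spans begin upstream of the RefSeq starts. They are shown because these receptor genes were read most in the myeloid classes described below.
Csf3r: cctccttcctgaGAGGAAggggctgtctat
Csf2ra: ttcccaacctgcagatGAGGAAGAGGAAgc
Csf2rb2: ctctgtgtctgcTTCCTCcagagaagtcag
The Csf2ra stretch holds the core in tandem. A match is a description of the letters and no evidence that the factor binds there.

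Over all kept cells, the Model library had less RNA for the GM-CSF ligand and both chains of its receptor than Control, and more for CSF1R. A gene was counted as higher or lower when it differed at least 1.5-fold with at least 50 UMIs over both libraries. Between Model and Control, 1 of the 8 genes was higher (Csf1r) and 3 were lower (Csf2, Csf2ra and Csf2rb), where 12.3% of all 15438 genes measured were higher and 18.1% lower. Between PD00 and Model, 1 of 8 was higher (Csf3) and 0 were lower, against 3.5% higher and 7.29% lower of 15253 genes. Between PD00 and Control, 1 of 8 was higher (Csf3) and 2 were lower (Csf2 and Csf2rb), against 10.5% higher and 19.7% lower of all genes.

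**Figure D1:**
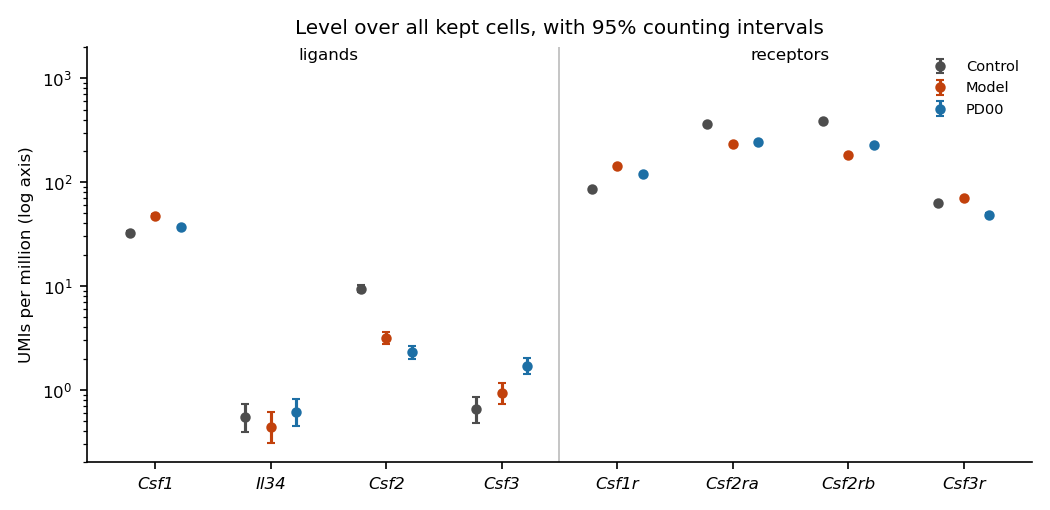
UMIs per 1000000 (CPM, log axis) of the 4 ligand and 4 receptor genes summed over all kept cells, 1 point per library with its exact Poisson 95% interval. Csf2, Csf2ra and Csf2rb sit highest in Control (9.41, 362 and 387 CPM), and Csf1r sits highest in Model (143 CPM).

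Csf2 (chromosome 11, 54247271 to 54249667, minus strand) had 727 UMIs in Control, 252 in Model and 177 in PD00. These are 9.41, 3.16 and 2.30 CPM (counts per 1000000 UMIs of the library), and the 3 counting intervals do not overlap. The Model to Control ratio was 0.336 (interval 0.290 to 0.388), which is 2.98-fold lower, and the PD00 to Model ratio was 0.728 (0.597 to 0.885).

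Most Csf2 RNA was in ILC2, lymphoid cells without antigen receptors that make type 2 cytokines. This class held 90.9% of the Csf2 UMIs in Control, 70.6% in Model and 71.8% in PD00. The class was 2.51% of all Control cells, against 0.922% in Model and 1.68% in PD00. Within ILC2 the level was 626 CPM in Control (interval 579 to 675), 365 in Model (314 to 423) and 194 in PD00 (162 to 231). The libraries were thus ordered Control, Model, PD00 with no overlap of these intervals. The intervals take each UMI as independent and do not cover the sampling of cells, and Csf2 UMIs were bunched in few cells. The Model to Control ratio within the class was 0.584 (0.492 to 0.690) and the PD00 to Model ratio was 0.532 (0.421 to 0.672). Model therefore had both a smaller share of ILC2 and less Csf2 per ILC2 transcript than Control, whereas PD00 had a larger share of ILC2 than Model and less Csf2 within them. Of the genes with enough UMIs in ILC2, 0 of 3 members were higher and 1 of 3 lower in Model than in Control, beside 14.2% and 16% of all genes. The counts for PD00 against Model were 0 and 1 of 2 members, beside 9.41% and 2.9% of all genes.

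The share of ILC2 with a Csf2 UMI was 42.98% in Control, 41.3% in Model and 29.3% in PD00, and with every cell thinned to 1000 UMIs it was 23.4%, 21.4% and 11.5%. Control and Model were close in this share and differed in the amount per cell. Cells with Csf2 held a mean of 6.54 UMIs in Control, 4.14 in Model and 2.76 in PD00. Cells with 10 or more Csf2 UMIs numbered 22 of 235 in Control, 6 of 104 in Model and 2 of 157 in PD00. As shares of cells these are 9.36% (5.96 to 13.8), 5.77% (2.15 to 12.1) and 1.27% (0.155 to 4.53). The interval of Model overlaps both others, and those of Control and PD00 do not overlap. The 22 Control cells held 403 of the 661 Csf2 UMIs of the class. The highest cell had 34 UMIs in Control, 21 in Model and 10 in PD00. A UMI of a CD3 gene was found in 54 of 235 Control, 28 of 104 Model and 38 of 157 PD00 ILC2. Such cells, which could be T cells or carry free RNA, did not hold the signal alone. ILC2 without any CD3 UMI had 661, 368 and 185 CPM of Csf2, and those with one had 535, 359 and 215.

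**Figure D2:**
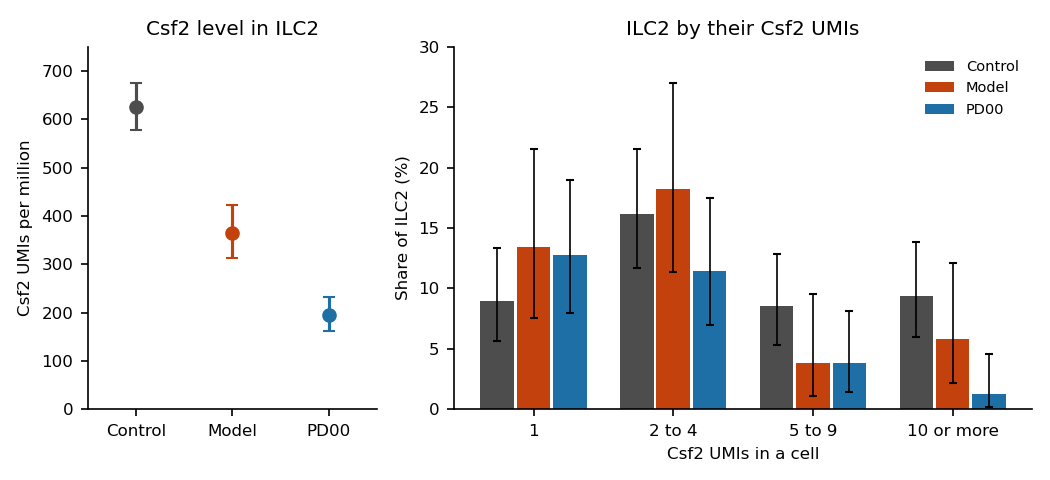
Csf2 in ILC2 of Control, Model and PD00: CPM with exact Poisson 95% intervals (left), and the share of ILC2 in percent by number of Csf2 UMIs in a cell, with exact Clopper-Pearson 95% intervals (right; cells with 0 are not drawn). The level is 626, 365 and 194 CPM, and the bar of 10 or more UMIs stands for 22, 6 and 2 cells.

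The way ILC2 were picked bears on these values. A gate per cell on Gata3 and Il1rl1 without a CD3 UMI, chosen after the clusters were seen, took 116 Control, 103 Model and 146 PD00 cells and gave 581, 229 and 93.7 CPM of Csf2, the same order. A looser gate of 3 list markers without a CD3 UMI took 784 Model cells, of which 711 lay outside the ILC2 class, and gave a Model to Control ratio of 0.0355. Of 11 genes known to respond to stress and tissue handling that were measured in ILC2, 6 were lower in Model than in Control and 0 were higher, and in PD00 against Model 0 of 10 were higher or lower. The part of handling in the Csf2 difference was not tested.

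T cells with a type 2 profile, marked by Gata3, Il1rl1 and CD3 genes, were the next source of Csf2 RNA in Model and PD00. They were 10 cells in Control, 868 in Model and 1039 in PD00. They held 17.9% of the Csf2 UMIs in Model and 18.6% in PD00, at 12.2 and 7.55 CPM, far below the ILC2 of the same libraries. Those UMIs came from 17 Model and 15 PD00 cells. Elsewhere, 20 UMIs of the Control fibroblast class came from 1 cell. Of the ILC2 with an Il13 UMI, 3 of 5 in Control, 6 of 9 in Model and 5 of 13 in PD00 also had one of Csf2. Of those with an Il5 UMI, 21 of 31, 9 of 14 and 8 of 17 did, where 101 of 235, 43 of 104 and 46 of 157 of all ILC2 had one of Csf2. Il5, which encodes the eosinophil growth factor, was at 50.2, 51.3 and 50.5 CPM in ILC2 of the same libraries. Its ratios of 1.02 (0.609 to 1.68) and 0.985 (0.568 to 1.73) rest on few UMIs and have wide intervals.

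Csf1 (chromosome 3, 107741048 to 107760469, minus strand) had 2515, 3782 and 2824 UMIs in Control, Model and PD00, or 32.6, 47.5 and 36.7 CPM. Model was the highest library. The ratio was 1.46 (1.39 to 1.53) for Model against Control and 0.774 for PD00 against Model, both inside the 1.5-fold limit. Behind these sums the sources differed: neutrophils held 45.1% of Csf1 UMIs in Control, 23.1% in Model and 25.5% in PD00, and Gpnmb Trem2 macrophages held 33.7% in Model and 23.6% in PD00. Fibroblasts held 16.1% in Control.

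**Figure D3:**
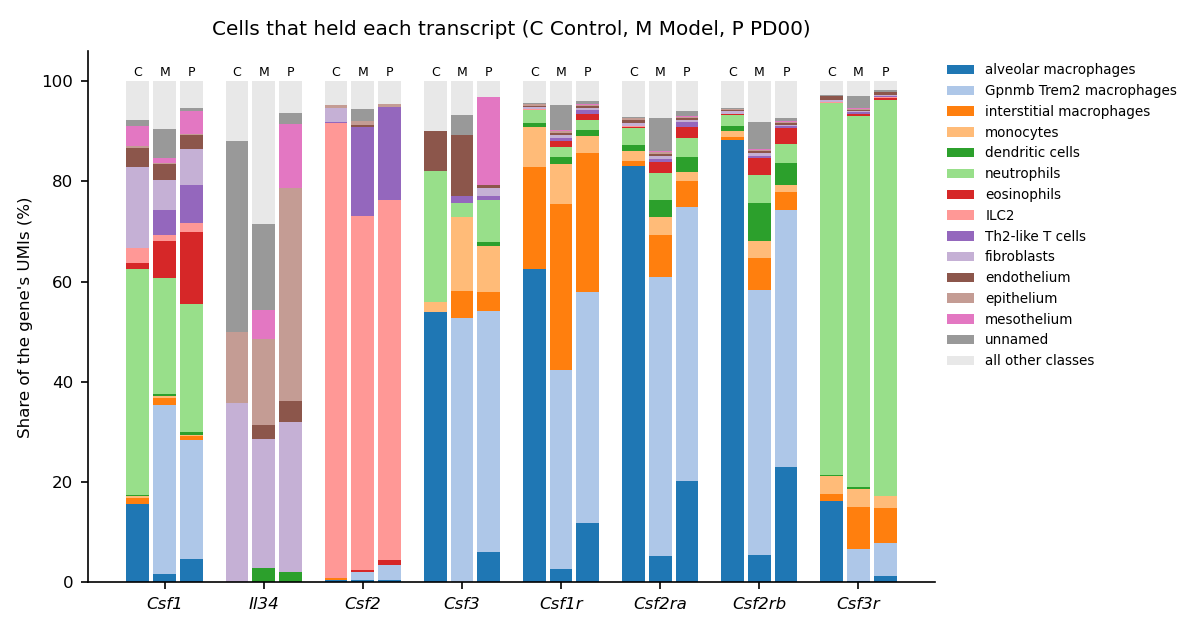
Stacked bars of the share of each gene's UMIs, in percent, held by each cell class in Control (C), Model (M) and PD00 (P). ILC2 hold most of Csf2 in all 3 libraries, alveolar macrophages hold most of Csf2ra and Csf2rb in Control and Gpnmb Trem2 macrophages in Model and PD00, and neutrophils hold most of Csf3r.

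In neutrophils, short-lived granulocytes, the Csf1 level was 609 CPM in Control (574 to 646), 395 in Model (369 to 422) and 481 in PD00 (447 to 518). The Model to Control ratio was 0.649 (0.593 to 0.709). This class has 2 clusters that differ in Csf1. Cluster 39, led by the granule genes Camp, Ngp and Ltf of immature neutrophils, had 12 cells in Control, 99 in Model and 58 in PD00, and only 32.4 CPM of Csf1 in Model and 32.6 in PD00. Within cluster 4, which holds the other neutrophils, Csf1 was at 626, 545 and 611 CPM, and the Model to Control ratio was 0.871 (0.796 to 0.953), short of the 1.5-fold limit. The lower class level in Model thus came with a larger share of cluster 39. In neutrophils, 0 of 5 members were higher and 1 lower in Model than in Control (all genes: 19.1% and 7.86%), and 0 of 5 were higher or lower in PD00 than in Model (all genes: 5.93% and 4.58%). Of 11 stress and handling genes measured there, 4 were lower in Model, and their part was not tested.

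In alveolar and Gpnmb Trem2 macrophages the Csf1 level was lower than in neutrophils, and Model was above PD00. Gpnmb Trem2 macrophages had 53.3 CPM (50.4 to 56.3) in Model and 26.6 (24.6 to 28.7) in PD00, a PD00 to Model ratio of 0.499 (0.454 to 0.549). Both clusters of the class showed it, with ratios of 0.425 in cluster 44 and 0.593 in cluster 45. Alveolar macrophages had 9.45 CPM in Control, 24.6 in Model and 12.99 in PD00, a Model to Control ratio of 2.61 (1.98 to 3.39) and a PD00 to Model ratio of 0.528 (0.390 to 0.720). The first ratio compares different clusters and rests on 66 Model UMIs: it was 5.48 at a clustering resolution of 1 and 5.95 with at most 10% mitochondrial UMIs per cell. With both macrophage classes summed, which removes the border between them, Csf1 was at 9.45, 50.4 and 22.6 CPM. Interstitial macrophages, which live in the lung tissue and not the airspace, had 20.3, 9.67 and 7.67 CPM from 26, 51 and 27 UMIs, with Control the highest.

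Many of the macrophages with the ligand RNA also had RNA of its receptor. Of the 482 Gpnmb Trem2 macrophages of Model with a Csf1 UMI, 445 had a Csf1r UMI, and of the 337 in PD00, 297 had one. These shares of 92.3% and 88.1% lay close to those of the cells of the class without a Csf1 UMI, 88.0% and 85.9%. Cells with Csf1 were the deeper ones, with a median of 22693 against 17093 UMIs in Model, so the overlap is a description.

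Fibroblasts, connective tissue cells and a known source of growth factor for tissue macrophages, had nearly the same Csf1 level in every library: 108, 107 and 104 CPM, with ratios of 0.987 and 0.973. Eosinophils, granulocytes of type 2 inflammation, had 520 CPM in Control from 30 UMIs, 283 in Model and 432 in PD00, a PD00 to Model ratio of 1.53 (1.31 to 1.79) that was 1.49 without the cell with the most Csf1 UMIs in each library. They were shallow, with a median of 819 to 838.5 UMIs per cell. Basophils and mast cells were at 1248, 891 and 951 CPM, the highest Csf1 levels of any class, but numbered only 30, 21 and 14 cells. Of this class 58.5% had a UMI of Mcpt8, a basophil marker, and 16.9% one of Cma1, a mast cell marker, but 38.5% had one of the T cell gene Cd3e, against 23.5% of the other cells. The part of T cell RNA in the values of this class was not tested. T cells outside the named subsets, a class not known as a source, had 2.35 to 4.52 CPM. Other lymphocytes were higher, with 1.99 to 12.3 CPM in B cells, 4.37 to 11.3 in natural killer cells and 6.12 to 20.3 in regulatory T cells. Free RNA may reach such levels, and its part was not tested. ILC2 stood above these lymphocytes, with 69.1, 98.5 and 76.6 CPM of Csf1 in Control, Model and PD00. The T cells with a type 2 profile had 51.8 CPM in Model and 48.0 in PD00.

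Il34 (chromosome 8, 110741829 to 110805924, minus strand), the other ligand of CSF1R, was rare, with 42, 35 and 47 UMIs in Control, Model and PD00. The levels of 0.544, 0.439 and 0.611 CPM did not differ beyond their counting intervals. Most of its UMIs lay in named structural classes: fibroblasts held 15, 9 and 14, epithelium 6, 6 and 20, mural cells 5, 4 and 1, and the mesothelium of PD00 held 6. The epithelial UMIs of PD00 all lay in alveolar type 2 cells, the surfactant-making cells, where 11 of 62 cells had one, against 6 of 98 in Control and 3 of 21 in Model. Clusters left unnamed held 16 of the Control UMIs, 6 in Model and 1 in PD00. Plasma cells held 4 in Model and 2 in PD00, and dendritic, B and other T cells held 1 each in Model. Il34 had 0 UMIs in the macrophage classes, neutrophils and ILC2, which allows up to 0.0716 CPM in Control alveolar macrophages and up to 6.16 CPM in Model ILC2, the smallest of these classes. Antisense genes overlap Il34 but had 5 and 2 UMIs in all.

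Csf3 (chromosome 11, 98701263 to 98703629, plus strand), the neutrophil growth factor gene, had 50, 74 and 131 UMIs, or 0.647, 0.929 and 1.70 CPM. PD00 was the highest library, with a ratio to Model of 1.83 (1.37 to 2.47), and Model and Control were not distinguishable by counting (1.43, 0.989 to 2.10). The RNA came from few cells. Alveolar macrophages held 27 UMIs in Control and 8 in PD00, Gpnmb Trem2 macrophages held 39 in Model and 63 in PD00, monocytes held 1, 11 and 12, and neutrophils held 13, 2 and 11. Of the PD00 UMIs, 23 came from 2 mesothelial cells, and 9 of the Model UMIs came from 1 endothelial cell. In Gpnmb Trem2 macrophages the PD00 to Model ratio was 1.54 (1.02 to 2.36), and it was 1.24 and 1.45 at clustering resolutions of 1 and 3, so the higher level within this class depended on where the clusters were drawn.

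**Figure D4:**
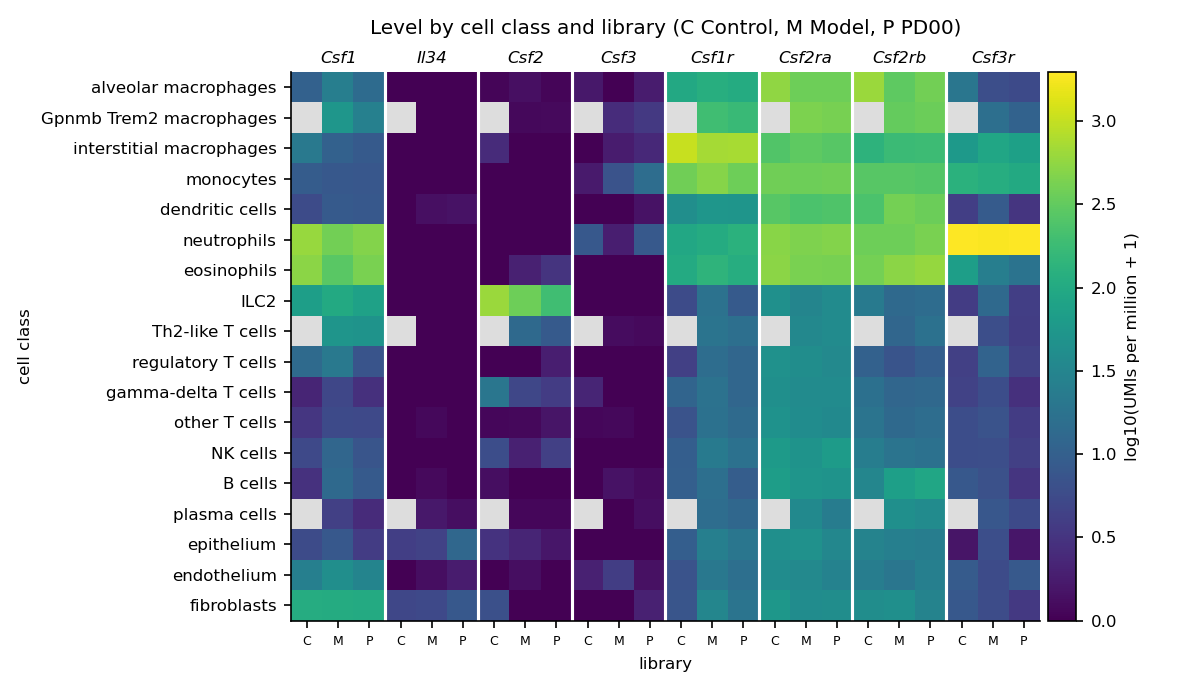
Heat map of the level of each gene, as log10(CPM + 1), in each cell class (vertical) and library (horizontal; C Control, M Model, P PD00), with grey where a library has under 50 cells of the class. Among these classes Csf1 is highest in neutrophils and eosinophils, Csf1r in interstitial macrophages and monocytes, Csf2 in ILC2 and Csf3r in neutrophils.

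Csf1r, on chromosome 18, had 6561, 11435 and 9296 UMIs in Control, Model and PD00, or 84.9, 143 and 121 CPM. Model was 1.69-fold higher than Control (1.64 to 1.74), and PD00 lay between them. Alveolar and Gpnmb Trem2 macrophages together went from 3021 cells in Control to 1359 in Model, and Csf1r in them was at 97.9 and 182 CPM, a ratio of 1.86 (1.79 to 1.94). Interstitial macrophages went from 209 to 542 cells. Interstitial macrophages supplied 17.2 of the 84.9 CPM in Control, 47.6 of 143 in Model and 33.4 of 121 in PD00. Gpnmb Trem2 macrophages supplied 56.9 in Model and 55.7 in PD00, and alveolar macrophages 53.1, 3.93 and 14.4. The same weight was also given to each named class with at least 50 cells in every library, which leaves out the Gpnmb Trem2 class. The Model to Control ratio was then 0.997.

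Within classes, Csf1r was highest in interstitial macrophages, at 1037 CPM in Control (982 to 1095), 720 in Model (697 to 743) and 730 in PD00 (702 to 759). Control was above the other libraries, but the class has 2 clusters and their mix differed. Cluster 30, led by C1qb, C1qc and Pf4, had 77 of the 209 Control, 423 of the 542 Model and 323 of the 419 PD00 cells. Its Csf1r level was 641, 649 and 659 CPM, with a Model to Control ratio of 1.01 (0.906 to 1.13). Cluster 29, led by Cd163, Ccl12 and Folr2, had 1332, 1069 and 1179 CPM and a ratio of 0.803 (0.733 to 0.879). Most of the class difference therefore went with the mix of clusters. In interstitial macrophages, 1 of 5 members was higher (Csf3r) and 1 lower (Csf1) in Model than in Control (all genes: 16.8% and 14.4%), and 0 of 5 were higher or lower in PD00 than in Model (all genes: 2.85% and 3.51%). Of 13 stress and handling genes, 11 were lower in Model than in Control in this class, and their part was not tested.

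Monocytes, blood-borne precursors of macrophages, followed with 384, 494 and 368 CPM of Csf1r. Gpnmb Trem2 macrophages had 190 in Model and 171 in PD00, and alveolar macrophages 98.0, 117 and 107. In alveolar macrophages the Model to Control ratio was 1.19 (1.06 to 1.34), which compares different clusters. Lower values in the following classes, without a known role for CSF1R, were highest in Model. Endothelium had 5.92, 19.8 and 14.8 CPM, and T cells outside the named subsets 5.96, 16.0 and 12.9. B cells had 8.97, 15.2 and 8.50, with PD00 not above Control. All are low beside the macrophages, and the part of free RNA in them was not tested. Hmgxb3 overlaps Csf1r on the opposite strand, with 3954 UMIs in all.

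Csf2ra (chromosome 19, 61223957 to 61228429, minus strand), the chain that gives the receptor its specificity for GM-CSF, had 27953, 18722 and 18778 UMIs, or 362, 235 and 244 CPM. Model was 1.54-fold lower than Control, and PD00 was within 1.04-fold of Model. Csf2rb, the signalling chain, had 29864, 14652 and 17597 UMIs, or 387, 184 and 229 CPM. Model was 2.10-fold lower than Control, and PD00 was 1.24-fold above Model. Csf2rb2 followed the same order, at 132, 51.1 and 63.3 CPM.

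Macrophages held most of the RNA of both receptor chains. In Control, alveolar macrophages held 83.0% of the Csf2ra and 88.2% of the Csf2rb UMIs. In Model they held 5.31% and 5.46%, and Gpnmb Trem2 macrophages held 55.6% and 52.9%. In PD00 alveolar macrophages held 20.2% and 23.1%, and Gpnmb Trem2 macrophages 54.8% and 51.3%. Nearly all of these cells had RNA of both chains: 2847 of 3021 alveolar macrophages in Control, 144 of 166 in Model and 573 of 620 in PD00, and 1105 of 1193 and 1200 of 1308 Gpnmb Trem2 macrophages in Model and PD00.

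Within alveolar macrophages Csf2rb was at 629 CPM in Control (621 to 636), 298 in Model (278 to 320) and 394 in PD00 (382 to 406), with no overlap of intervals. The Model to Control ratio was 0.475 (0.442 to 0.509), and the PD00 to Model ratio was 1.32 (1.22 to 1.42). Csf2ra was at 554, 371 and 367 CPM, a Model to Control ratio of 0.670 (0.628 to 0.714) and a PD00 to Model ratio of 0.989. PD00 thus lay above Model for Csf2rb and within the interval of no difference (0.922 to 1.06) for Csf2ra. The Model to Control ratios of this class compare different clusters, as for Csf1. Csf2rb2 went with Csf2rb, at 216, 80.6 and 102 CPM. Gpnmb Trem2 macrophages had 324 and 361 CPM of Csf2rb and 435 and 412 of Csf2ra in Model and PD00. With both classes summed, the Model to Control ratio was 0.512 for Csf2rb and 0.774 for Csf2ra. In alveolar macrophages, 1 of 5 members was higher (Csf1) and 2 were lower (Csf2rb and Csf3r) in Model than in Control, beside 11.2% and 27.7% of all genes. In PD00 against Model, 0 of 5 were higher and 1 was lower (Csf1), beside 6.6% and 3.4% of all genes. Of 13 stress and handling genes measured in this class, 5 were higher and 3 lower in Model than in Control, and 0 were higher and 6 lower in PD00 than in Model, and their part was not tested.

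**Figure D5:**
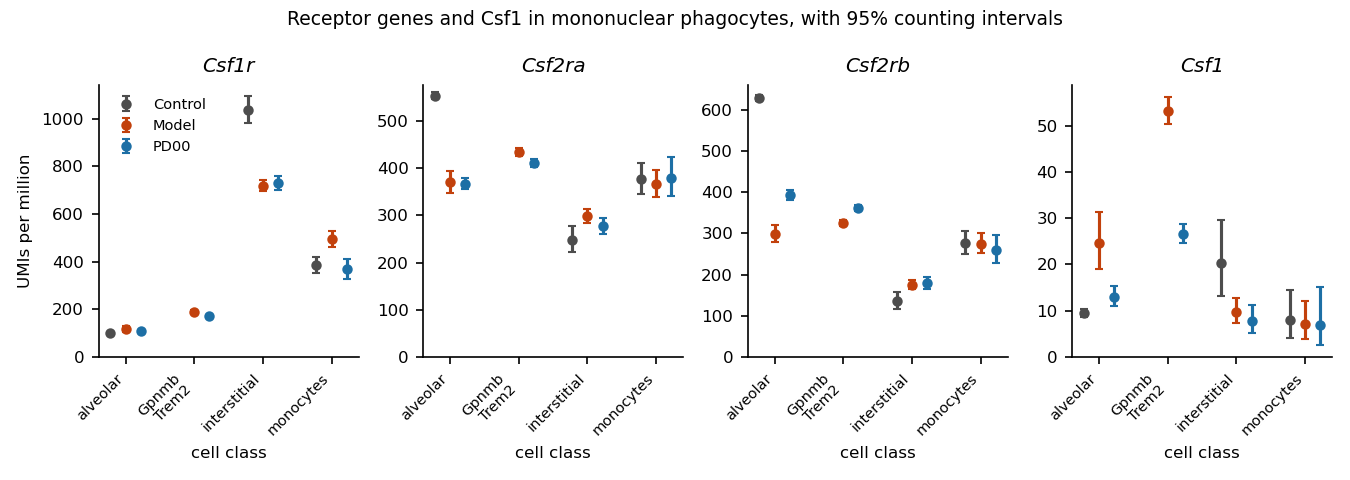
CPM of Csf1r, Csf2ra, Csf2rb and Csf1 in alveolar, Gpnmb Trem2 and interstitial macrophages and in monocytes, 1 point per library with its exact Poisson 95% interval and a vertical axis from 0 for each gene. Control has no point for the Gpnmb Trem2 class, and Csf2rb in alveolar macrophages is highest in Control (629), lowest in Model (298) and between them in PD00 (394).

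The beta chain did not move the same way in every class. In dendritic cells, which present antigen to T cells, Csf2rb was at 232 CPM in Control, 400 in Model and 358 in PD00, a Model to Control ratio of 1.72 (1.52 to 1.97). Among the type 1 conventional dendritic cells of this class it was at 180, 350 and 315 CPM, over 84, 99 and 85 cells, so the difference was also present within that subset. Csf2ra in dendritic cells went the other way, at 277, 229 and 246 CPM. Interstitial macrophages had 136, 175 and 180 CPM of Csf2rb, and neutrophils 365, 365 and 425. Within neutrophil cluster 4 it was at 370 (342 to 399), 461 (428 to 496) and 503 (463 to 545) CPM. Cluster 39 had 133 in Model and 157 in PD00. Neutrophils, eosinophils and monocytes had receptor RNA in all 3 libraries, with 398 to 595 CPM of Csf2rb in eosinophils and 260 to 276 in monocytes. Basophils and mast cells had 1259, 1568 and 2404 CPM, the highest of any class, over 30, 21 and 14 cells, with Cd3e in 38.5% of the class.

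B cells had 31.2 CPM of Csf2rb in Control, 71.0 in Model and 87.5 in PD00, where T cells outside the named subsets had 17.4, 12.4 and 14.2. The B cell share with a Csf2rb UMI, thinned to 1000 UMIs per cell, was 2.21%, 5.21% and 7.05%, against 1.70%, 1.61% and 1.002% of those T cells. The Model to Control ratio was 2.27 (1.80 to 2.89). Here too the clusters differed: cluster 1 was at 48.4, 86.9 and 99.7 CPM (ratio 1.80) and cluster 2, led by Ighd and Fcer2a of resting B cells, at 23.8, 26.3 and 35.5 (ratio 1.10). Cluster 1 had 216 of the Control, 549 of the Model and 495 of the PD00 B cells. Il5ra, whose product pairs with the beta chain to bind interleukin 5, was in the same class at 25.2, 36.6 and 49.3 CPM.

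Csf3r (chromosome 4, 126024550 to 126044440, plus strand) had 4848, 5590 and 3749 UMIs, or 62.8, 70.2 and 48.7 CPM. Neutrophils held 74.3%, 73.9% and 79.0% of them. Their level was 1935 CPM in Control (1872 to 1999), 1866 in Model (1809 to 1923) and 1976 in PD00 (1905 to 2048), with neighbouring intervals that overlap. Cluster 4 was at 1974, 2476 and 2433 CPM, a Model to Control ratio of 1.25 (1.20 to 1.31), and the granule-rich cluster 39 at 392 in Model and 401 in PD00. The near equal class levels of Control and Model thus joined a higher level in cluster 4 with more cells of cluster 39. Neutrophils were 911, 866 and 651 of the kept cells.

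Outside neutrophils, monocytes had 128, 114 and 100.6 CPM of Csf3r, and interstitial macrophages 57.7, 89.0 and 74.4, with a Model to Control ratio of 1.54 (1.20 to 1.997). Alveolar macrophages had 18.7 CPM in Control, 5.22 in Model from 14 UMIs, and 4.46 in PD00. Thinned to 1000 UMIs, 2.07% of Control alveolar macrophages had a Csf3r UMI, against 0.589% of T cells outside the named subsets. The Model to Control ratio of 0.279 in alveolar macrophages turned to 2.07 when doublets were kept, so it has no settled direction.

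The other genes of the pathway were read over all cells from lists of known members. Of all genes over the same cells, 12.3% were higher and 18.1% lower in Model than in Control. For PD00 against Model these shares were 3.5% and 7.29%. Among relatives of the beta chain, Il5 was 6.21-fold and Il5ra 7.02-fold higher in Model than in Control, Il3ra was 1.25-fold higher, and Csf2rb2 2.58-fold lower. Il3 had 2, 1 and 0 UMIs. Of 21 receptor signalling genes, 1 was higher in Model, the kinase Jak2 (2.14-fold), and 5 were lower, the adaptor Gab2 (2.12-fold) among them; the list's median log2 ratio was -0.04 beside -0.13 for all genes. Of 11 feedback and early target genes, 2 were higher, Socs2 (1.94-fold) and Socs1 (1.70-fold), both inhibitors of cytokine signalling, and 5 were lower, with Osm 3.86-fold and Egr1 1.99-fold lower; the median was -0.40.

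Of 18 genes of alveolar macrophages that depend on GM-CSF, 12 were lower and 2 higher in Model than in Control, with a median log2 ratio of -1.39. The scavenger receptor gene Marco was 36.4-fold lower and the lipid droplet gene Cidec 15.5-fold lower, while the fatty acid transporter Cd36 was 2.02-fold and the integrin Itgax 1.68-fold higher. Within alveolar macrophages the list had 10 lower and 2 higher genes, where 27.7% of all genes were lower and 11.2% higher. The median there was -0.82, beside -0.25 for all genes. This comparison too is between different clusters. Several genes of this list, Marco and Cidec among them, also served to name the class. In PD00 against Model, 6 of 18 were higher and 1 lower over all cells, with Cidec 2.73-fold and the cholesterol exporter Abcg1 2.02-fold higher. These counts go with the shares of alveolar macrophages, and the part of cell numbers in them was not tested.

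Of 15 macrophage genes that depend on CSF1, 8 were higher and 2 lower in Model than in Control over all cells, with a median log2 ratio of 1.35. The complement gene C1qc was 5.91-fold higher and the mannose receptor gene Mrc1 1.74-fold lower. Within interstitial macrophages 7 of 14 were lower and 0 higher, beside 14.4% lower and 16.8% higher of all genes. The median was -0.44, beside 0.02 for all genes, so the library sum and the class differed in sign. The mix of clusters in this class differed too. Cluster 29, led by Cd163, Ccl12 and Folr2, had 132 of the 209 Control cells but 119 of the 542 Model cells. Folr2 is also in this list, and C1qa, a complement gene like C1qc, is a defining marker of the class. The part of the mix in these counts was not tested. In PD00 against Model, 3 were higher and 6 lower of 15, with Lyve1 1.88-fold higher and Folr2 2.12-fold lower. Of 16 neutrophil genes that respond to granulocyte colony-stimulating factor, 11 were higher and 0 lower in Model, with Ltf 54.8-fold and Camp 54.6-fold higher, and these are leading genes of cluster 39. In PD00 against Model 0 were higher and 7 lower over all cells, with Ly6g 2.39-fold and Ltf 2.21-fold lower. Within neutrophils 10 of 16 were higher and 0 lower in Model than in Control, beside 19.1% and 7.86% of all genes. Only 1 of 16 was lower and 0 higher in PD00 than in Model there, beside 4.58% and 5.93%. The median log2 ratios within neutrophils were 1.20 and -0.16. The part of cell numbers and of cluster 39 was not tested.

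Among 14 measured inducers of colony-stimulating factors and their receptors, 3 were higher and 7 lower in Model than in Control. The shares of all genes for this comparison were 12.3% higher and 18.1% lower. Tnf was 23.4-fold and Il1a 9.20-fold lower, and Il1rl1, the receptor of interleukin 33, was 5.69-fold higher. Of 12 lineage transcription factors, 4 were higher, Cebpe of granule formation most (6.35-fold), and 5 lower, Bhlhe41 (2.86-fold) and Pparg (2.79-fold) most. Of 10 other growth factor genes, 3 were higher and 3 lower, with Il7r 2.91-fold higher and Lif 2.503-fold lower. Of 13 stress and handling genes, 0 were higher and 5 lower over all cells, Atf3 most (2.17-fold). For PD00 against Model, where 3.5% of all genes were higher and 7.29% lower, the counts were small. They were 0 higher and 1 lower of 21 signalling genes, 0 and 1 of 11 feedback genes, 1 and 4 of 14 inducers. Of 13 stress genes 0 were higher and 2 lower. The 4 beta chain relatives, 12 transcription factors and 10 other growth factor genes gave 0 and 0.

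Likeness across cells was measured as Pearson's r of log2(CPM + 1) over 56 class sums, which share libraries, depth and the clustering, among 11808 genes, and is a description. The pattern of Csf2ra was most like that of Spi1 (0.96), which encodes PU.1, then Nfam1 (0.95) and Pirb (0.95), and that of Csf2rb most like Spi1 (0.97), Csf2ra (0.94) and Pirb (0.93). Csf1r was most like Fcgr3 (0.92), Cd300a (0.92) and Clec4a3 (0.89), genes of the myeloid cell surface. Csf3r was most like S100a8 (0.90), Trem3 (0.90) and S100a9 (0.90). Csf2 was most like Pcsk1 (0.88), Ccdc184 (0.83) and Calca (0.83), which are leading genes of the ILC2 cluster. Csf1 was most like Dusp1 (0.82), Slc27a4 (0.79) and Dusp6 (0.78), a less close match, and its RNA was spread over granulocytes, macrophages and fibroblasts.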

How the data were processed

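UMI counts per gene and cell barcode were deposited by the authors as raw whole numbers, 1 matrix per library (10133, 11772 and 9851 barcodes). The submitters' processing notes name Cell Ranger 3.1.0, STAR and mm10, and the file headers name cellranger 5.0.0. The analysis used Python 3.11, scanpy 1.11.5, scipy 1.17.1, numpy 2.4.6, igraph 0.11.9 and matplotlib 3.10.9. Filters kept barcodes with 500 or more UMIs, 200 or more genes and mitochondrial UMIs of at most 20%. Doublets were removed at a Scrublet score of 0.2 (4.30%, 2.18% and 2.84% of cells), chosen after seeing the data, since the caller's own threshold marked 421, 0 and 3. The kept cells had medians of 5231.5, 4048 and 4574 UMIs, and 31 to 43 barcodes were shared between pairs of libraries.

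Cells were clustered (2000 variable genes without the members or Csf2rb2, 30 components, 20 neighbours, Leiden resolution 2), and 43 of 46 clusters were named from markers. UMIs were summed per library and class and scaled to CPM, with exact Poisson intervals for levels, exact conditional binomial intervals for ratios and Clopper-Pearson intervals for shares of cells. The ratio step was tested on simulated data. A sum of 0 was set to the floor of 3 counts in the lists.

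Members and lists were chosen with earlier results of these data known. Named were all members, the classes holding at least 10% of a member's UMIs in a library, the relatives of the beta chain, genes among the 2 highest and 2 lowest ratios of each list, and the 3 genes most like each member with at least 500 UMIs. Other classes, the clusters and the subsets were named after their values were seen. Alternatives were other cell filters, scalings, resolutions and weights, doublets kept, and the cell with the most UMIs left out. The gates per cell, the summed macrophage classes and the sets without unnamed clusters or red cells and shallow cells were added after seeing the data. Promoter sequences are from RefSeq, coding sequences from the GRCm38 annotation. Some genes of the lists are not reported here.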

Additional observations from a re-analysis of the deposited data

Results flagged for a closer look

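Some genes went opposite ways in 2 classes under the same comparison, among classes with at least 20 CPM in either library, a limit chosen after the values were seen. Csf1 was 2.61-fold higher in Model than in Control in alveolar macrophages and had a ratio of 0.477 in interstitial macrophages. In PD00 against Model, Csf1 had a ratio of 1.53 in eosinophils and 0.499 in Gpnmb Trem2 macrophages. Csf2rb had a Model to Control ratio of 2.27 in B cells and 0.475 in alveolar macrophages. The Model to Control ratios in alveolar macrophages compare different clusters. Each group has 1 library, so none of these differences between classes was tested.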

How the results depend on the processing

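No paired analysis was possible because each group has 1 library. Of the 10 called values over all cells, 88 of 90 alternative values kept their direction and 83 stayed past 1.5-fold, and of the 13 called values within classes, 101 of 102 kept their direction and 95 stayed past. Equal weight was given only to named classes with at least 50 cells in every library, so Gpnmb Trem2 macrophages were left out. This changed several values. The Model to Control ratio was 0.997 for Csf1r (turned), 0.920 for Csf2rb and 0.566 for Csf2. The PD00 to Model ratio of Csf2 was 0.547, and the PD00 to Control ratio of Csf2rb was 1.02 (turned). The members called then numbered 0 higher and 1 lower for Model against Control, 2 higher and 1 lower for PD00 against Model, and 2 higher and 1 lower for PD00 against Control. Median-of-ratios scaling, which shifts all log2 ratios by 0.13, 0.01 and 0.14 in the 3 comparisons, gave 1.85 for Csf1r and 0.520 for Csf2rb, 3 members higher in Model and 2 higher in PD00 than in Control, and 0.710 for Csf2ra. At most 10% mitochondrial UMIs gave 0.450 for Csf2rb and 2 members higher in Model. Without the unnamed clusters, 2 members were higher in PD00 than in Model and 2 than in Control. Csf3r in alveolar macrophages turned to 2.07 with doublets kept. Csf2 in ILC2 had a Model to Control ratio of 0.0355 by the list gate and 0.394 by the Gata3 and Il1rl1 gate, and a PD00 to Model ratio of 0.409 by the latter. The causes were not tested, beyond the make-up of each set. By a marker gate Csf1 in neutrophils was at 0.736. Low counts of Il34 and Csf3 limit any comparison of those genes.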
